A study of Mus musculus with 51 samples.

Results

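The genes described here build the basement membrane, the thin protein sheet on which epithelium and blood vessels rest. They are 9 genes: the laminin alpha chains Lama3, Lama4 and Lama5, the beta chains Lamb1, Lamb2 and Lamb3, the gamma chain Lamc1, and the partners Nid1 and Hspg2. They were taken by name, with every probe set annotated to 1 of these symbols alone, which gave 20 of the 34944 probe sets with 1 symbol and 9 of 18192 genes. The rule itself uses names and no measured value.

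The study followed mammary tumors in mice in which Wap-Cre turned on a conditional Etv6-NTRK3 knockin allele in mammary epithelium. The Wap promoter drives Cre in milk-producing epithelium. The fusion couples part of Etv6, a transcription factor gene, to the kinase domain of the receptor gene NTRK3. RNA from 51 samples was hybridized to Affymetrix MOE430.2 arrays. Sorted samples were lacZ+ cells, which carry the recombined Rosa26 reporter: hyperplastic mammary epithelial cells (4 arrays, 4 mice), primary tumor cells (8 arrays, 6 mice) and cells of tumors transplanted into RAG2-/- recipients (7 arrays, 5 donor mice, passages 1 to 4). Unsorted samples were whole primary tumors (23 arrays of 22 tumors, 14 mice), whole transplanted tumors from RAG2-/- recipients (4 arrays, 2 donor mice) and whole mammary glands of wild-type mice (5 arrays, 5 mice). The hyperplasia and tumors came from Wap-Cre;Etv6-NTRK3 mice, several tumors shared 1 mouse, and the glands lacked the fusion. Strain, age and reproductive state were not given in the sources used here.

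Laminins are secreted as trimers of 1 alpha, 1 beta and 1 gamma chain and assemble into a network that cells hold through integrins and dystroglycan. Nidogen-1, the product of Nid1, links that network to type IV collagen, and perlecan, the product of Hspg2, is a large heparan sulfate proteoglycan of the same sheet. In the mammary gland the sheet lies outside the basal myoepithelial layer, and contact with laminin is known to support the differentiated state of luminal cells. Lama3 and Lamb3 belong to the laminin of hemidesmosomes, the rivets that anchor basal epithelium. Lama4 is typical of vessel and other mesenchymal basement membranes, and Lama5 is made by epithelium and endothelium.

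Levels are log2 of the deposited probe set intensity, with values under 32 raised to 32, so 5 is the floor. Each gene is shown by its probe set with the highest mean, and a probe set is compared only with itself. Array medians lay between 42.9 and 57.8 on the linear scale. Precision depends on how many arrays and mice each group has and on the spread of each gene. Of the 20 probe sets 17 passed the filter on dim signal, and 1 probe set each of Lama3, Lama5 and Lamb1 was at the floor in all 50 replicates. All 9 genes were tested. Luminal markers were strong in all 6 groups, at means of 10.63 to 11.43, but the sorted samples also held signal of other cells. Macrophage markers averaged 10.97 in sorted hyperplasia, 9.51 in sorted primary tumor and 8.24 in unsorted primary tumor, and none of the 8 was at the floor throughout any group. In unsorted tissue, fewer cells of a type and less RNA per cell cannot be told apart.

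**Figure D1:**
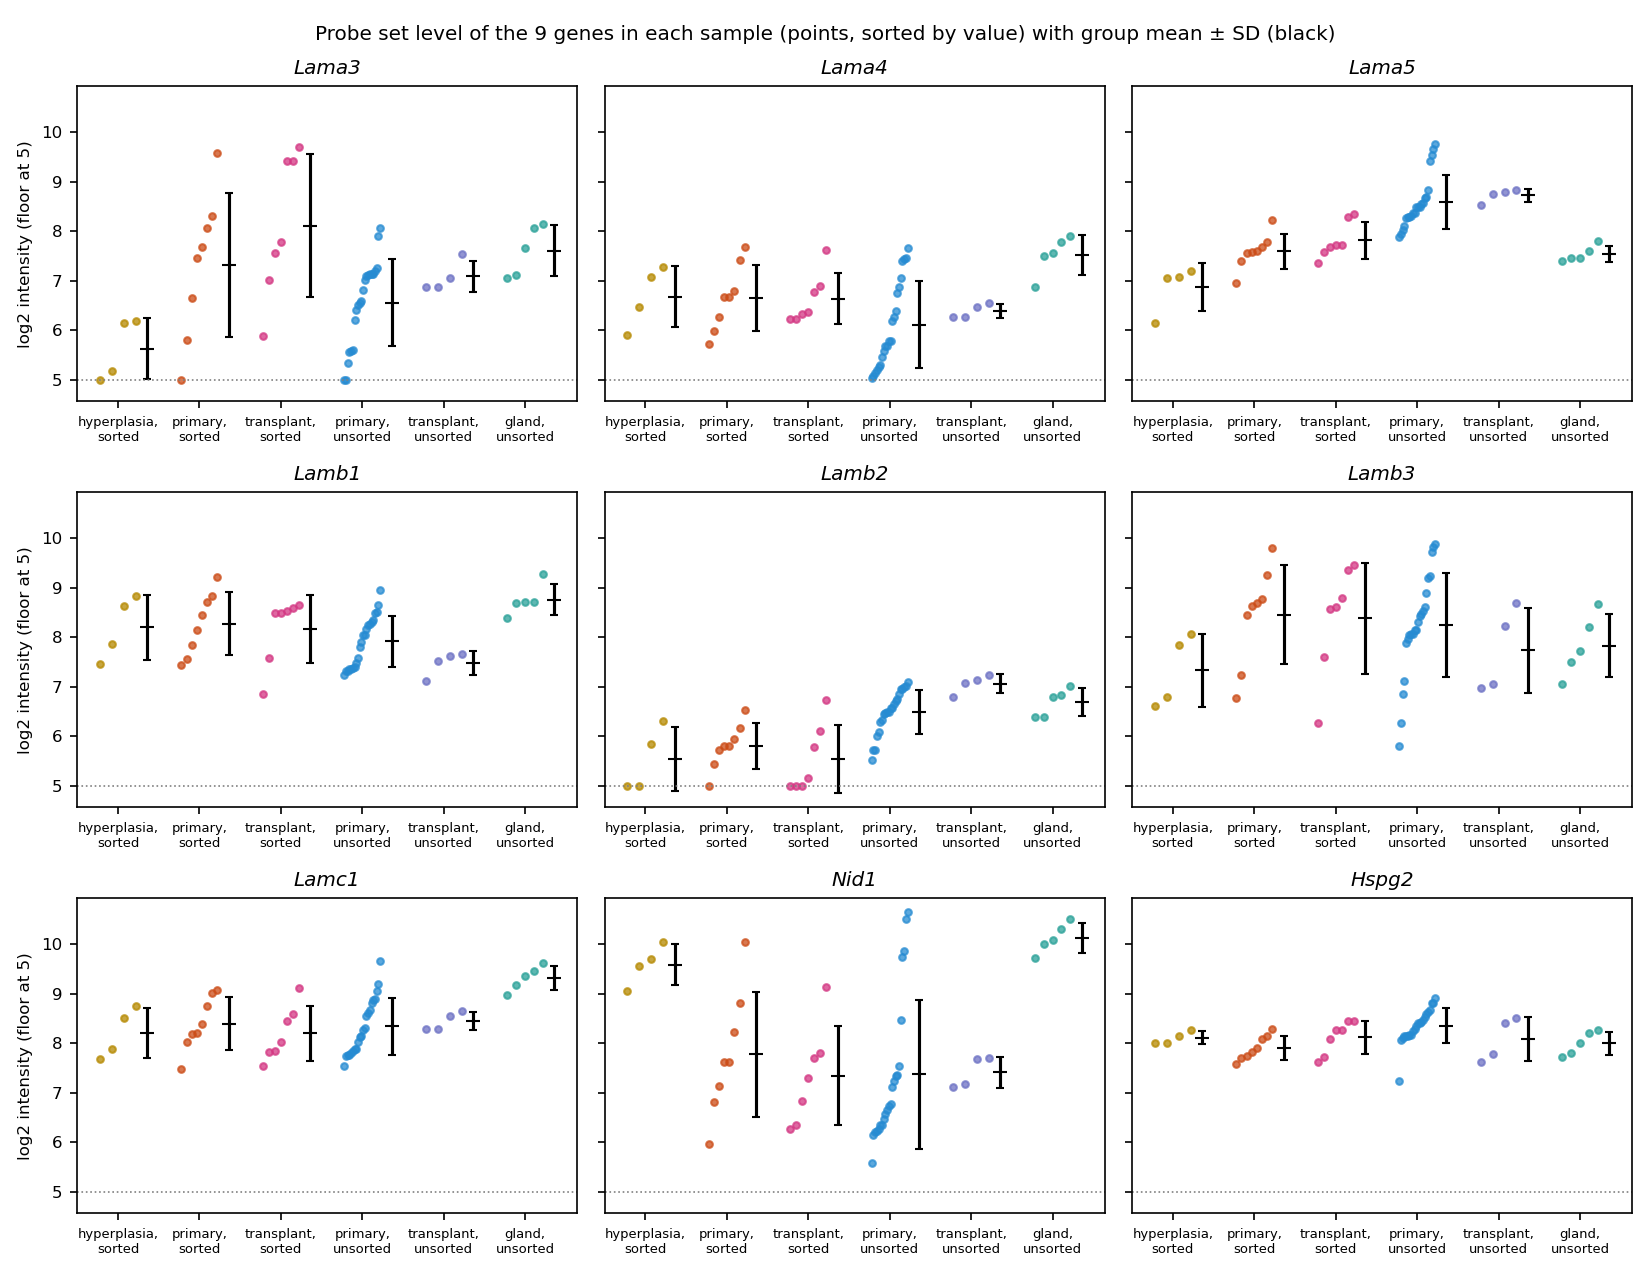
Log2 intensity of the 9 genes in each of the 50 replicates (points, ordered by value within a group), with the group mean and SD in black and the floor at 5 dotted. Lama5 is high in both kinds of unsorted tumor sample, Nid1 is high in hyperplasia and gland, and Lama3, Lamb3 and Nid1 scatter widely among tumors.

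Whole primary tumors were compared with whole wild-type glands to see how the set differed between tumor and normal tissue. Lama4, Lamb1, Lamc1 and Nid1 were lower in tumor and Lama5 was higher, 5 of 9 genes in all. In the same limma fit 51% of the 15150 genes tested were called, 29.4% as higher and 21.5% as lower in tumor, at an adjusted p under 0.05. In the fit of every probe set with 1 symbol, used below for second probe sets, 48.7% were called. The median difference of the 9 genes was -0.94, beside 0.10 over all genes tested. The call of these 5 genes was kept under all 29 alternative settings.

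Among the alpha chains, Lama5 is printed first, with the sequence around its start, because it was the gene called in 3 comparisons. The sequence is from RefSeq (GRCm38.p6, chr2:180225810-180226109, minus strand), running from 250 bases before the transcript start to 50 after it. Capitals mark the GC box, GGGCGG or its reverse complement CCGCCC, a motif bound by Sp family factors.

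Lama5: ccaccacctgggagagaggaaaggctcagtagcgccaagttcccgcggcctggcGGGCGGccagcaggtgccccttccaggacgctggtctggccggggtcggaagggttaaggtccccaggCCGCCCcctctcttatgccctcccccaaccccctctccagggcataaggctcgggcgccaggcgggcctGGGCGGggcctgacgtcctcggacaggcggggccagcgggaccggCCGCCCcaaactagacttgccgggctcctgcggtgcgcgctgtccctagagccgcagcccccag

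The window held 4 GC boxes and 72.7% G or C, against a median of 52.7% over all 32851 RefSeq windows of that length, of which 35.7% held at least 1 GC box. A match is a description of the letters and not a binding site.

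Lama5 levels in the 5 glands were 7.46, 7.80, 7.46, 7.39 and 7.60. In the 22 unsorted tumors the lowest was 7.87, the median 8.48 and the highest 9.76. All 22 tumors lay above the highest gland, so the groups did not overlap. The fitted difference was 0.97 ± 0.23 (SE), a 1.96-fold higher level in tumor, with a limma adjusted p of 0.000349. The second measured probe set of Lama5, 1427010_s_at, rose by 1.07 ± 0.26 (limma adjusted p 0.000627).

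Lama4 levels in the glands were 7.90, 7.78, 7.495, 7.56 and 6.87, and in the tumors the lowest was 5.04, the median 5.78 and the highest 7.66. The tumors spread from near the floor up to the level of the glands, and 17 of 22 lay below the lowest gland. The difference was -1.49 ± 0.35, a 2.81-fold lower level in tumor (limma adjusted p 0.000375). The second probe set, 1424808_at, did not show it. It averaged 5.56 in tumor and 5.41 in gland, close to the floor, with a difference of 0.08 ± 0.19 (limma adjusted p 0.759). With the mean of all probe sets of a gene the Lama4 difference was -0.70, with the floor at 100 it was -0.73, and with the control ratios Actb and Gapdh as covariates it was -2.24; it was called each time.

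Lama3, the alpha chain of the hemidesmosome laminin, was not called. Its gland levels were 8.06, 7.11, 8.14, 7.05 and 7.66, and the tumors ran from the floor through a median of 6.69 to 8.06. Tumors reached into the range of the glands but not above it, and 13 of 22 lay below the lowest gland. The difference was -1.08 ± 0.54 (limma adjusted p 0.0905; 95% confidence interval -2.17 to 0.00406). It was called with array weights (-1.15) and with the Actb and Gapdh covariates (-1.59), in 2 of 29 settings.

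Among the beta chains, Lamb1 was at 9.27, 8.70, 8.72, 8.72 and 8.40 in the glands. The tumors had a lowest value of 7.23, a median of 7.96 and a highest of 8.95. The groups overlapped, with 18 of 22 tumors below the lowest gland. The difference was -0.94 ± 0.28, a 1.92-fold lower level in tumor (limma adjusted p 0.00395). All 3 measured probe sets of Lamb1 fell, with differences of -0.80, -0.94 and -0.91.

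Lamb2 and Lamb3 did not pass. Lamb2 is the beta chain of synaptic and vascular laminins and averaged 6.48 ± 0.45 (SD, n = 22) in tumor and 6.69 ± 0.29 (n = 5) in gland, with a difference of -0.18 ± 0.27 (SE) and a limma adjusted p of 0.589. Lamb3, the partner of Lama3, averaged 8.25 ± 1.06 in tumor and 7.83 ± 0.63 in gland, with a difference of 0.31 ± 0.52 (limma adjusted p 0.645). The tumors ranged from 5.80 to 9.88 for Lamb3, a wider spread than the glands, which ran from 7.05 to 8.67. Its 95% confidence interval, -0.74 to 1.36, leaves room for differences in either direction.

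Lamc1, the gamma chain shared by most laminins, was at 9.62, 9.46, 9.36, 9.18 and 8.97 in the glands. In the tumors the lowest was 7.53, the median 8.21 and the highest 9.67. Most tumors were low, 19 of 22 lying below the lowest gland, while 1 exceeded the highest. The difference was -1.05 ± 0.26, a 2.08-fold lower level in tumor (limma adjusted p 0.000586). The second probe set, 1423886_at, was above the floor in 7 of 50 replicates and gave 0.13 ± 0.15 (limma adjusted p 0.486). With the mean of both probe sets the Lamc1 difference was -0.46 and was still called.

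Nid1 differed most. The gland levels were 10.31, 10.51, 10.08, 10.0016 and 9.72, and in the tumors the lowest was 5.58, the median 6.74 and the highest 10.64. Tumors split between many low and a few at gland level: 18 of 22 lay below the lowest gland and 1 above the highest. The difference was -2.89 ± 0.57, a 7.42-fold lower level in tumor (limma adjusted p 4.23e-05). The other probe sets fell too, 1448469_at by 2.51 and 1441519_at by 0.29; the last of these was above the floor in only 5 of 50 replicates. With the mean of all 3 probe sets the Nid1 difference was -1.89.

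Hspg2 gave no single answer, since its probe sets disagreed. By 1418669_at the glands were at 8.20, 8.26, 8.0001, 7.73 and 7.81, and the tumors had a lowest value of 7.24, a median of 8.38 and a highest of 8.91. The groups overlapped, and the difference was 0.32 ± 0.17 (limma adjusted p 0.126). By 1418670_s_at the glands averaged 9.10 ± 0.31 and the tumors 7.75 ± 0.59, a difference of -1.42 ± 0.29 (limma adjusted p 7.67e-05). With the mean of both probe sets Hspg2 was lower in tumor, by -0.55 (limma adjusted p 0.0274), and with arrays centred on their median the first probe set alone gave 0.42 (0.0218). The direction of Hspg2 therefore depended on the probe set used.

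**Figure D2:**
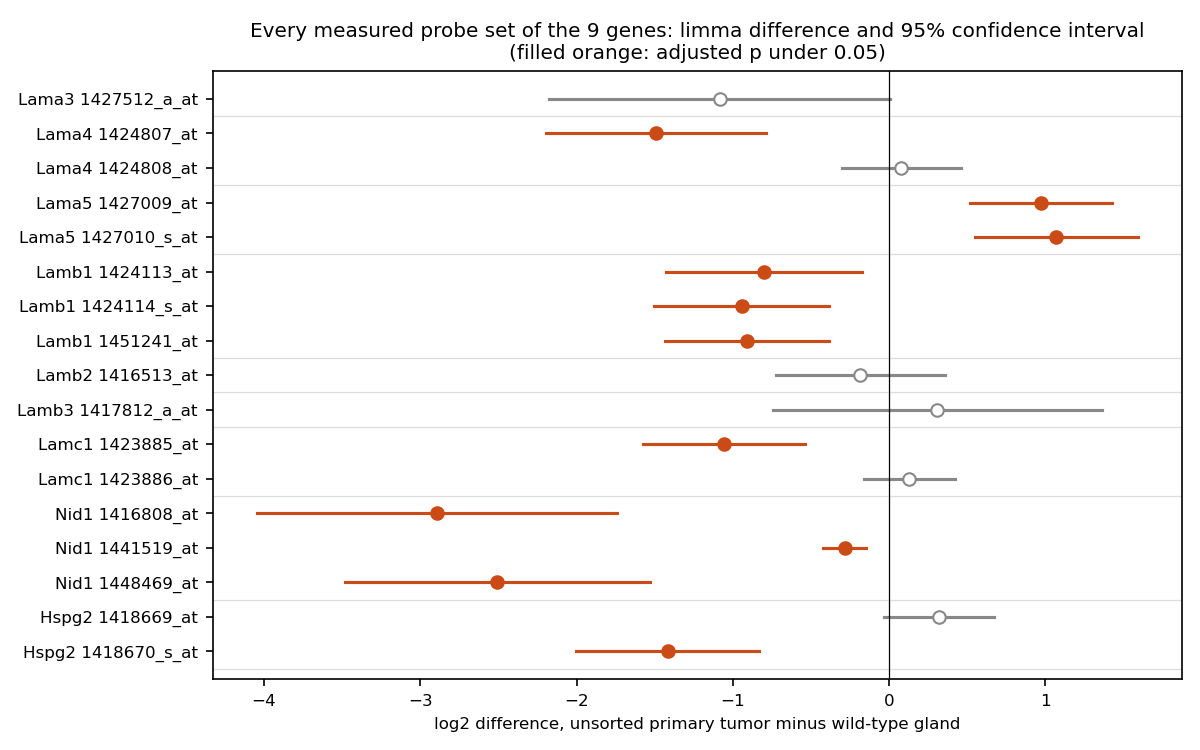
Log2 difference, unsorted primary tumor minus wild-type gland, of the 17 measured probe sets of the 9 genes, with 95% confidence intervals (limma; filled orange, adjusted p under 0.05 over all probe sets of 1 symbol). Probe sets of Lama5, Lamb1 and Nid1 share a direction, while those of Hspg2 do not. For Lama4 and Lamc1 the probe set of opposite sign was close to the floor and was not called.

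Markers of cell types also differed between tumor and gland. Of the 13 endothelial markers 12 were lower in tumor than in gland, and their mean level ranged from 5.76 to 7.39 in tumors and from 7.68 to 8.84 in glands. All 10 fibroblast markers were lower, with levels of 5.56 to 10.28 in tumors and 10.10 to 10.87 in glands. The basal list had 5 of 10 markers lower, among them Myh11 at -4.54 and Cnn1 at -3.22, and a level of 6.22 to 9.02 in tumors against 8.64 to 9.66 in glands. None of these markers was at the floor throughout the tumors or the glands. Of the pericyte list 3 of 8 were higher and 3 lower. Of the luminal list 3 of 8 were higher, Cldn7 at 1.66, Cldn3 at 1.64 and Epcam at 0.76, and Cldn4 was lower at -1.38. The luminal level was 10.47 to 11.91 in tumors and 9.80 to 11.42 in glands. Of the macrophage list 4 of 8 were lower, led by Mrc1 at -2.39, with levels of 7.36 to 9.39 and 8.37 to 9.98. Of the adipocyte list 4 of 7 were tested and 1, Fabp4, was lower, at -5.31, with levels of 5.45 to 8.89 and 6.81 to 8.11. The log2 ratio of 3' to 5' Actb signal, a sign of RNA quality, was 0.56 in tumors and 0.95 in glands (exact permutation test, two-sided, adjusted p 0.121). The part of these cells and of RNA quality in the differences of the 9 genes was not tested.

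The sequences of Lamb1 and Nid1, which fell together, are shown because they are those of the 4 falling genes that RefSeq's table held. They are on the plus strand of GRCm38.p6, at chr12:31265043-31265342 for Lamb1 and chr13:13437352-13437651 for Nid1, with GC boxes in capitals as above.

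Lamb1: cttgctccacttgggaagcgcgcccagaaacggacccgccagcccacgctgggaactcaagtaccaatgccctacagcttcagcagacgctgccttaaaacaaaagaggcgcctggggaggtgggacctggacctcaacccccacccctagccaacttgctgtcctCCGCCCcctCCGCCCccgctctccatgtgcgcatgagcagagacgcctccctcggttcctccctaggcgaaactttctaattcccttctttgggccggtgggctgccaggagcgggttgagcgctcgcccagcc
Nid1: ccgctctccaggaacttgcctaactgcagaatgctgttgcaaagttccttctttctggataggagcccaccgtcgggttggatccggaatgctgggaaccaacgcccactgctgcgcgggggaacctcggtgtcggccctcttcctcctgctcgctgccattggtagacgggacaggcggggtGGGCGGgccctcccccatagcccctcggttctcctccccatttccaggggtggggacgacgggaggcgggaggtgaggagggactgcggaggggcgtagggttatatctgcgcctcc

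Lamb1 held 2 GC boxes and Nid1 held 1, at 63.7% and 64.7% G or C. Windows are described for 6 of the 9 genes, after any member window on 1 chromosome was left out. Neither TGANTCA, the AP-1 site, nor TATAAA, the TATA box, or its reverse complement TTTATA, occurred in any window of these 6 genes. Over all windows 7.81% held the AP-1 site and 13.6% the TATA box.

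Other basement membrane genes were read from a list of 30, of which 27 were tested. Against the gland, 2 were higher and 9 lower in tumor, with a median difference of -0.41 beside 0.10 over all genes. Lama2, the alpha chain of muscle and stromal laminin, fell by 3.00 ± 0.25 (limma adjusted p 1.6e-13). Col15a1, a collagen linking the sheet to interstitial matrix, fell by 2.36 ± 0.47 (4.67e-05), Hmcn1 fell by 1.78 ± 0.29 (1.95e-06) and Smoc2 fell by 1.46 ± 0.33 (0.000262). Nid2, the close relative of Nid1, fell by 1.30 ± 0.28 (0.000125). The main type IV collagen chains were split by the threshold. Col4a2 fell by 1.04 ± 0.35 (limma adjusted p 0.0113), and Col4a1 gave -0.75 ± 0.35 (0.0665). The 2 rises, named after their values were seen, were those of Agrn, the proteoglycan agrin, at 1.23 ± 0.27 (0.000141) and of Fbln1 at 0.66 ± 0.14 (7.18e-05).

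The receptors went both ways. Of 16 laminin receptor and hemidesmosome genes 15 were tested, and 5 were higher and 4 lower in tumor, with a median of -0.01. Itgb4, the integrin beta chain of hemidesmosomes, rose from 6.60 in gland to 9.50 in tumor, a difference of 2.99 ± 0.48 (limma adjusted p 1.53e-06). Its alpha partner Itga6 rose by 0.73 ± 0.21 (0.0032). Bcam, a receptor for the Lama5 chain, rose by 1.60 ± 0.45 (limma adjusted p 0.0025). Sdc2, a heparan sulfate syndecan, fell by 1.67 ± 0.37 (0.000226), and Dst, a hemidesmosome plakin, fell by 1.02 ± 0.36 (0.0159).

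**Figure D3:**
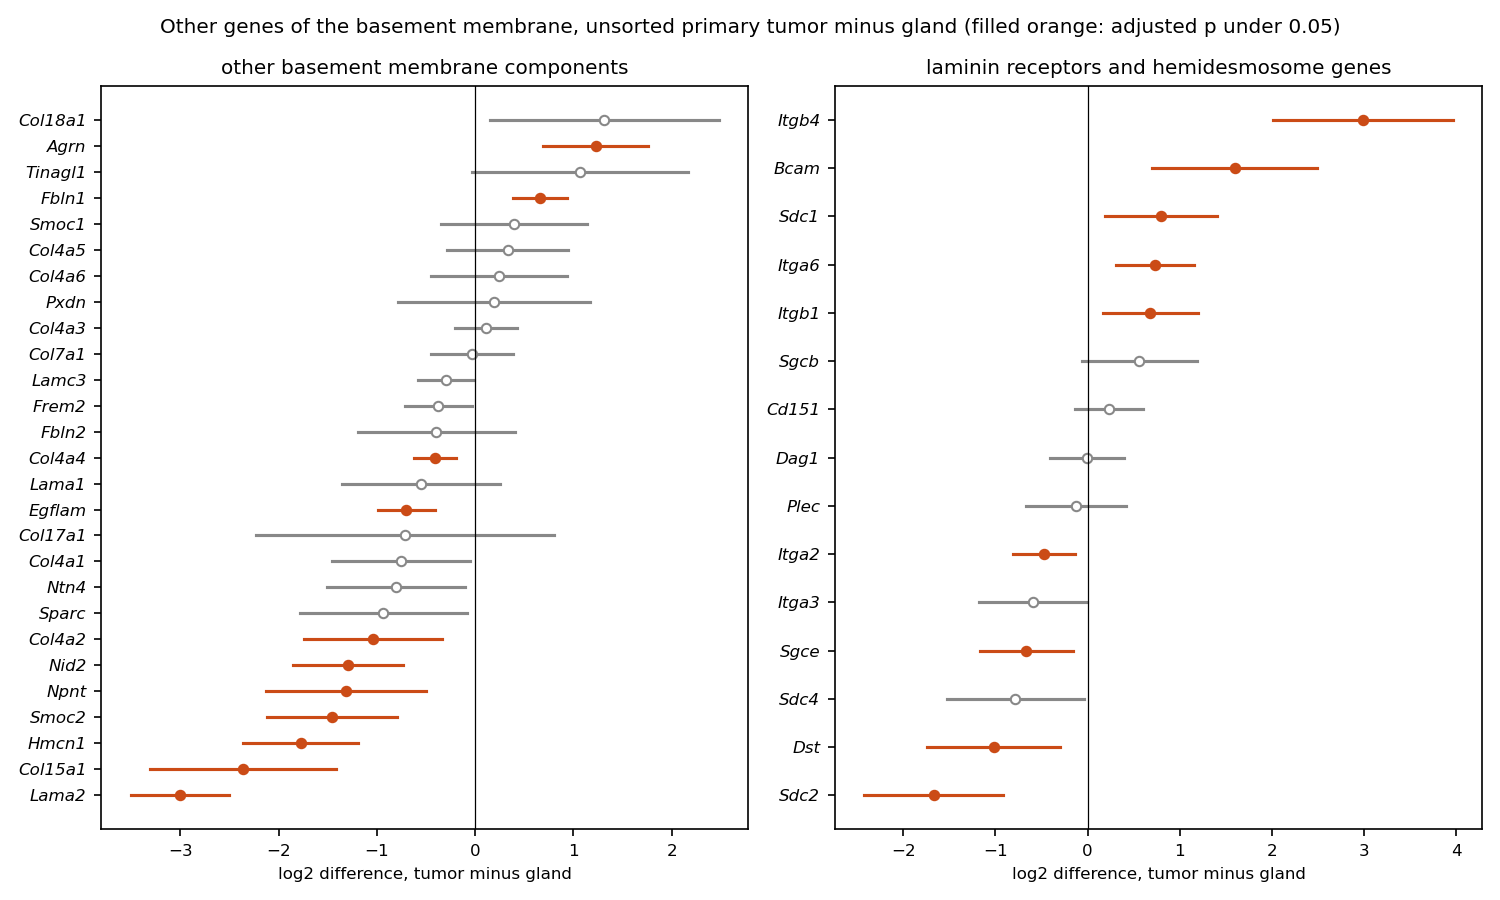
Log2 difference, unsorted primary tumor minus wild-type gland, of the other basement membrane genes (left, 27 genes) and of laminin receptor and hemidesmosome genes (right, 15 genes), with 95% confidence intervals (limma; filled orange, adjusted p under 0.05). Falls led by Lama2 and Col15a1 outnumber rises on the left, and Itgb4 at 2.99 is the highest on the right.

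Sorted lacZ+ tumor cells were compared with whole tumors to see how far each gene's signal followed the sorted cells. The sorted and unsorted primary tumors came from different mice, and the sorted and unsorted transplants from different donor mice, so sorting and the set of mice cannot be told apart. In primary tumors Lama5, Lamb2 and Hspg2 were lower in sorted cells and no gene of the set was higher. That is 3 of 9, where 25.3% of all genes were called, 9.62% as higher and 15.7% as lower, and 24.4% in the fit of every probe set. The median of the 9 was 0.31, beside -0.05 over all genes. This comparison and that with the gland share the unsorted primary tumors, so their values for 1 gene are not independent.

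Lama5 in the 8 sorted primary tumors had a lowest value of 6.96, a median of 7.59 and a highest of 8.23, against 7.87 to 9.76 in the unsorted ones. Sorted cells were low, 7 of 8 lying below every unsorted tumor. The difference was -0.88 ± 0.20, a 1.84-fold lower level in sorted cells (limma adjusted p 0.000791). The second probe set fell by 0.77 ± 0.23 (limma adjusted p 0.00949). The call of Lama5 held under all 29 alternative settings, at -0.55 with the mean of its probe sets.

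Lamb2 in sorted primary tumors ran from the floor through a median of 5.79 to 6.53, and in unsorted tumors from 5.51 through 6.52 to 7.10. Sorted cells were lower as a group but overlapped, with 2 of 8 below every unsorted tumor. The difference was -0.64 ± 0.23 (limma adjusted p 0.0378). Hspg2 ran from 7.58 through 7.86 to 8.28 in sorted cells and from 7.24 through 8.38 to 8.91 in unsorted tumors. All sorted values lay inside the unsorted range, and the difference was -0.42 ± 0.15 (limma adjusted p 0.038). The second Hspg2 probe set gave -0.24 ± 0.25 (limma adjusted p 0.53).

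The calls of Lamb2 and Hspg2 were lost when array control signals entered the fit. With the BioB and BioC spike-in signal as a covariate the limma adjusted p was 0.0726 for Lamb2 and 0.0548 for Hspg2, and with the Actb and Gapdh ratios it was 0.0873 and 0.0803. The log2 ratio of 3' to 5' signal was 0.29 in sorted and 0.56 in unsorted primary tumors for Actb, and -0.07 and 0.14 for Gapdh (permutation tests, two-sided, adjusted p 0.0818 for each over 18 tests). With the floor at 100 the Lamb2 difference was -0.10 (limma adjusted p 0.273). Over the 29 settings Lamb2 was called in 26 and Hspg2 in 25, with limma adjusted p from 0.00411 to 0.273 and from 0.0102 to 0.193.

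The genes that did not pass in primary tumors had positive differences for the most part. Lama3 gave 0.77 ± 0.47, Nid1 0.67 ± 0.50, Lama4 0.58 ± 0.30 (limma adjusted p 0.155), Lamb1 0.33 ± 0.24, Lamb3 0.31 ± 0.45 and Lamc1 0.14 ± 0.22. Their intervals all include 0. Macrophage markers were higher in sorted cells for 5 of 8 genes, with levels of 7.59 to 11.20 in sorted and 7.36 to 9.39 in unsorted tumors. Fibroblast markers were higher for 2 of 10, Dpt by 1.66 and Pdgfra by 1.36, with levels of 6.73 to 10.75 in sorted tumors. None of 13 endothelial markers was called, and Pecam1 was at the floor in all 8 sorted tumors. Of the pericyte list 1 of 8 was lower, Kcnj8 at -1.39, with levels of 6.34 to 7.52 in sorted and 7.04 to 8.18 in unsorted tumors. The basal list had 1 of 10 higher, with differences from -0.04 to 0.90. No adipocyte marker was called. Luminal markers had 1 higher and 4 lower, Cldn4 at 1.87 and Krt19 at -1.43 among them. The part of these cells in the member differences was not tested.

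Transplanted tumors gave a like comparison in RAG2-/- recipients, which lack mature T and B cells. Here Lama5 and Lamb2 were lower in sorted cells, 2 of 9 genes, where 17.5% of all genes were called, 5.88% as higher and 11.6% as lower, and 17.6% in the fit of every probe set. Lama5 was at 8.83, 8.53, 8.78 and 8.76 in the unsorted transplants, and in the 7 sorted transplants the lowest was 7.35, the median 7.73 and the highest 8.35. The groups did not overlap, and the difference was -0.98 ± 0.30, a 1.98-fold lower level in sorted cells (limma adjusted p 0.0196). The second Lama5 probe set did not pass there, at -0.75 ± 0.35 (limma adjusted p 0.13).

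Lamb2 was at 7.07, 7.23, 6.78 and 7.14 in the unsorted transplants. In the sorted transplants the lowest was the floor, the median 5.15 and the highest 6.74. All sorted values lay below all unsorted ones, and 4 of the 7 sorted transplants were above the floor. The difference was -1.52 ± 0.36, a 2.87-fold lower level in sorted cells (limma adjusted p 0.00231), but -0.91 with the floor at 64 and -0.35 with it at 100. With only the compared groups in the fit neither gene passed, at limma adjusted p 0.0511 for Lama5 and 0.0671 for Lamb2. With samples of 1 mouse averaged Lama5 was at 0.0582, and with the spike-in covariate it was at 0.0645. Over the 29 settings Lama5 was called in 26 and Lamb2 in 28, with limma adjusted p from 0.00478 to 0.0645 and from 0.000147 to 0.0671.

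Lamb1 in transplants gave 0.65 ± 0.37 (limma adjusted p 0.226), and it was called in the fit with the spike-in covariate, at 1.04 (0.0286). The other 6 genes gave differences between -0.37 (Lamc1) and 0.63 (Lama3). Of the macrophage list 1 of 8 was higher in sorted transplants, Cd14 at 2.41, with levels of 6.79 to 10.59 in sorted and 7.69 to 8.05 in unsorted ones. Of the luminal list 2 of 8 were lower, Cldn7 at -1.69 and Cldn3 at -1.28, with levels of 10.25 to 11.70 and 11.17 to 11.62. Of the pericyte list 1 of 8 was lower, Rgs5 at -1.94, with levels of 6.33 to 7.23 and 7.26 to 7.59. None of the 13 endothelial, 10 fibroblast, 10 basal or 4 adipocyte markers was called. The spike-in signal averaged 8.99 in sorted and 8.03 in unsorted transplants, and the Gapdh ratio -0.15 and 0.03 (exact permutation tests, two-sided, adjusted p 0.121 and 0.0963). Their part in the Lama5 and Lamb2 differences was not tested. The sorted minus unsorted difference in transplants, less that in primary tumors, was -0.89 ± 0.41 for Lamb2 (limma adjusted p 0.576) and -0.10 ± 0.34 for Lama5 (0.985), and it was called for none of the 9 genes, where 0.0858% of all genes were called, 0.0132% as higher and 0.0726% as lower. At an unadjusted p under 0.05 it held Lamb2 alone, and the share of all genes at that threshold was not counted.

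Of the other basement membrane genes none of 27 was called for the sort in primary tumors. In transplants Ntn4, a laminin-related netrin, was 1.35 ± 0.47 higher and Lamc3 was 0.56 ± 0.19 higher in sorted cells, and Lamc3 was at the floor in all unsorted transplants. Col15a1 fell by 1.73 ± 0.63 and Fbln1 fell by 0.65 ± 0.18 (limma adjusted p 0.0377, 0.0359, 0.0486 and 0.00992 in that order). Of the receptors, Sdc4 was higher in sorted cells in primary tumors by 1.08 ± 0.32 and in transplants by 1.43 ± 0.50 (limma adjusted p 0.0105 and 0.0383). Itga3, the alpha chain that pairs with Itgb1 to bind laminin, was 0.79 ± 0.25 higher in sorted primary tumors (0.0179). Itgb4 fell by 1.21 ± 0.42 there (0.029), and in transplants it gave -1.09 ± 0.65 (0.25).

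**Figure D4:**
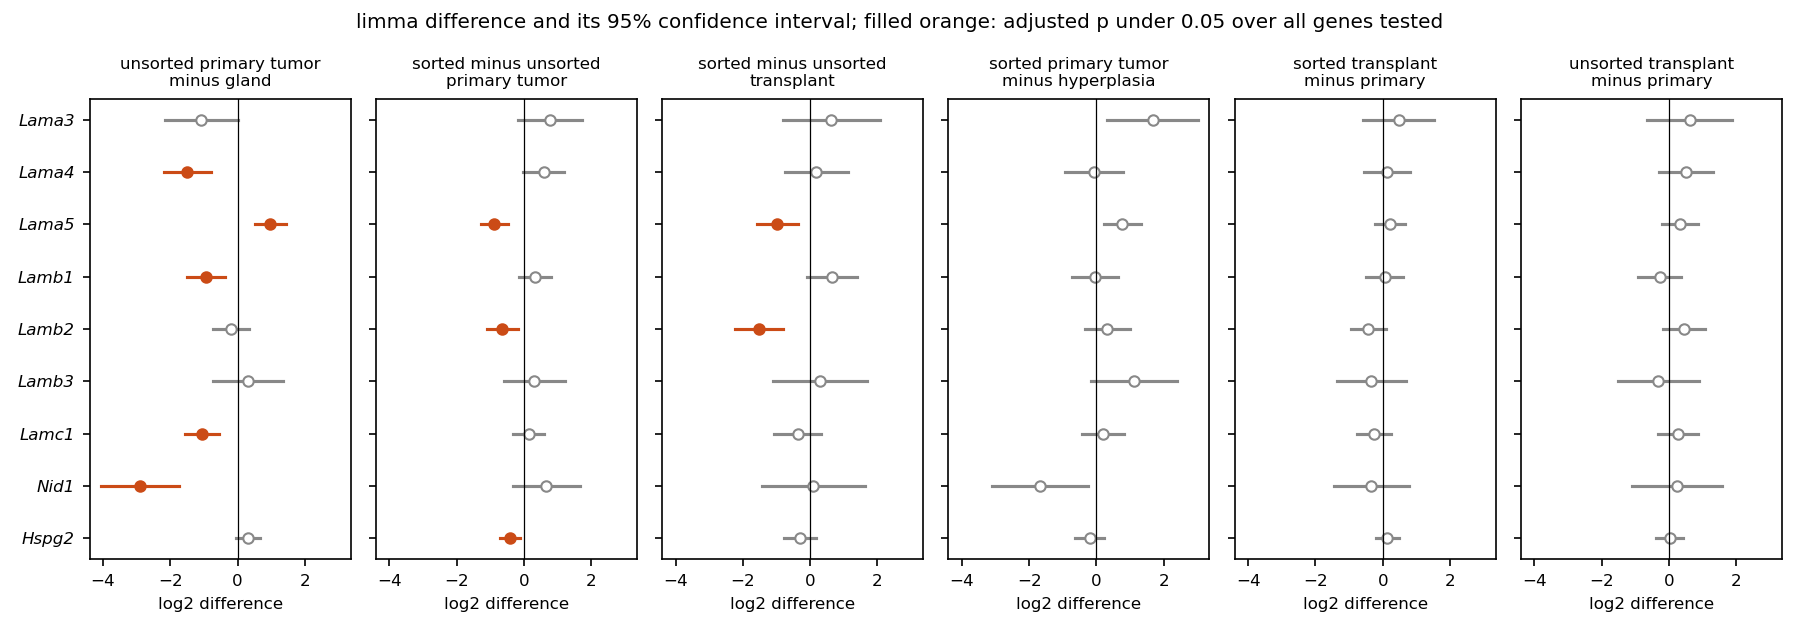
Log2 differences of the 9 genes in 6 comparisons with 95% confidence intervals (limma, 1 fit of all groups; filled orange, adjusted p under 0.05). Lama5 is at 0.97 against the gland and at -0.88 and -0.98 in the sorts, Nid1 at -2.89 against the gland, and the 3 panels on the right hold no called gene.

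Sorted tumor cells were compared with sorted hyperplastic cells to follow the set from hyperplasia to tumor. None of the 9 genes passed, where 3.78% of all genes were called, 1.29% as higher and 2.5% as lower in tumor. At an unadjusted p under 0.05 the fit held Lama3, Lama5 and Nid1. The share of all genes at that threshold was not counted, so no excess can be read from it. Lama3 was at the floor, 5.18, 6.15 and 6.18 in hyperplasia, and ran from the floor through 7.57 to 9.58 in sorted primary tumors. Of the 8 tumors 6 lay above all hyperplasia values, and the difference was 1.67 ± 0.67 (limma adjusted p 0.16). Lamb3 gave 1.12 ± 0.64 (0.369), also with 6 of 8 tumors above the hyperplasia range.

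Lama5 in hyperplasia was at 6.14, 7.06, 7.19 and 7.08, and 7 of the 8 sorted tumors lay above these. The difference was 0.77 ± 0.28 (limma adjusted p 0.111). Nid1 was at 9.56, 9.05, 10.04 and 9.70 in hyperplasia, and in the tumors the lowest was 5.96, the median 7.62 and the highest 10.04. Tumors were low except for 1 at the top of the hyperplasia range, and the difference was -1.68 ± 0.71 (limma adjusted p 0.186).

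Beside these values, fibroblast markers were lower in sorted tumor than in hyperplasia for 5 of 10 genes, with levels of 9.88 to 10.56 in hyperplasia and 6.73 to 10.75 in tumor. Endothelial markers were lower for 4 of 13, Plvap at -1.61 and Tek at -1.57 among them, with levels of 6.06 to 7.33 and 5.52 to 6.74. Of the basal list Cdh3 was higher at 1.73 and Myh11 lower at -2.02, and the level was 6.99 to 8.03 in hyperplasia and 6.26 to 9.44 in tumor. The basal keratins did not pass, at 2.94 for Krt17, 2.19 for Krt5 and 1.80 for Krt14, nor did the basal regulator Trp63 at 1.60. Acta2, Cnn1, Mylk and Oxtr did not pass either and had negative differences. The median over the 10 basal markers was 0.73. Of the adipocyte list 4 of 7 were tested and 1, Fabp4, was lower, at -3.24, with levels of 6.55 to 7.28 in hyperplasia and 5.59 to 6.38 in tumor. No luminal, macrophage or pericyte marker was called, and macrophage differences had a median of -1.37. The BioB and BioC spike-in signal averaged 10.42 in hyperplasia and 8.91 in tumor (exact permutation test, two-sided, adjusted p 0.121). Their part in the differences was not tested. Of the other basement membrane genes Lama2 fell by 1.78 ± 0.31 (limma adjusted p 0.000149) and Smoc2 fell by 1.505 ± 0.41 (0.0232). Of the receptors Sgce, a sarcoglycan, fell by 1.13 ± 0.31 (0.0251), and Itgb4 gave 1.82 ± 0.60 (0.0725).

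Transplanted tumors were set against primary tumors within sorted and within unsorted samples. No gene of the set passed in either. In the sorted samples no gene at all was called (0%), and in the unsorted samples 0.944% of all genes were, 0.752% as higher and 0.191% as lower in transplants. The differences of the 9 genes ran from -0.43 (Lamb2) to 0.47 (Lama3) in sorted samples and from -0.32 (Lamb3) to 0.61 (Lama3) in unsorted ones, and none reached an unadjusted p under 0.05. The narrowest interval was that of Hspg2 in sorted samples, -0.21 to 0.47, and the Lama3 interval in unsorted samples reached from -0.64 to 1.86. No gene of the basement membrane or receptor lists passed in these comparisons.

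The order of the 6 group means is given as a description. For Lama5 it was unsorted transplant (8.72), unsorted primary tumor (8.59), sorted transplant (7.81), sorted primary tumor (7.60), gland (7.54) and hyperplasia (6.87). The step from unsorted to sorted tumor and that from gland to hyperplasia were larger than the SD of both neighbours, and the others were not. For Nid1 it was gland (10.13), hyperplasia (9.59), sorted primary tumor (7.78), unsorted transplant (7.41), unsorted primary tumor (7.37) and sorted transplant (7.34), with only the first pair of steps larger than both SDs. For Lama4 and Lamc1 the gland came first (7.52 and 9.32), and the step below it was the only one larger than both SDs. For Lamb2 the 3 unsorted groups came first (7.05, 6.69 and 6.48) and the 3 sorted groups last (5.80, 5.54 and 5.54). For Lama3 hyperplasia (5.63) lay below the rest by more than both SDs. For Lamb1, Lamb3 and Hspg2 no neighbours differed by more than their SDs.

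Unsorted primary tumors also differed among themselves. Among 14 tumors of the 6 mice with several, the SD within a mouse was 1.15 for Lama3 and 1.26 for Lamb3, above the SD of the 14 mouse means (0.61 and 0.85). For Nid1 the SD within a mouse was 0.99 and that of the mouse means 1.26, and for Lamc1 these were 0.32 and 0.51. Tumors of 1 mouse could thus lie far apart for Lama3 and Lamb3, while for Nid1 and Lamc1 the SD of the mouse means was the larger. Mouse means also carry the spread among tumors of 1 mouse, so their SD does not measure differences between mice alone.

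Mouse means were then set against marker levels, with 45 pairs of a gene and a list tested. On the fibroblast list the mice fell apart, 11 between 5.56 and 7.20 and 3 between 8.08 and 8.41, so correlations are given within the 11 alone and pooled values over the 14 are not given. The mouse means of Nid1 were 8.25 to 10.57 in those 3 mice and 5.91 to 7.11 in the 11. Those of Lama5 were 8.69 to 9.71 and 7.95 to 8.59, and those of Lamc1 were 8.77 to 9.24 and 7.53 to 8.62. Those of Lamb1 were 8.20 to 8.41 and 7.23 to 8.16. For Lama3, Lama4, Lamb2, Lamb3 and Hspg2 the ranges of the 3 and the 11 mice overlapped. The share of all genes with separate ranges was not counted. Within the 11 mice, Lamc1 was lower where luminal markers were higher, with r = -0.92 and rho = -0.94 (permutation tests, adjusted p 0.0018 and 0.0036). Without the 2 mice farthest from the median marker level r was -0.83.

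Lamb3 had r = 0.86 with basal markers within the 11 mice (permutation test, adjusted p 0.0342), but rho = 0.72 did not pass (adjusted p 0.309) and r was 0.48 without the 2 farthest mice, so that relation rests on those mice. Lama3 had r = 0.78 and rho = 0.55 with basal markers (permutation tests, adjusted p 0.12 and 0.521). Lama5 had r = 0.73 and rho = 0.70 with endothelial markers (adjusted p 0.128 and 0.309 by permutation). Nid1 had r = 0.44 with fibroblast and 0.58 with endothelial markers within the 11 (permutation tests, adjusted p 0.701 and 0.361). None of the other pairs passed on both measures within the 11 mice.

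**Figure D5:**
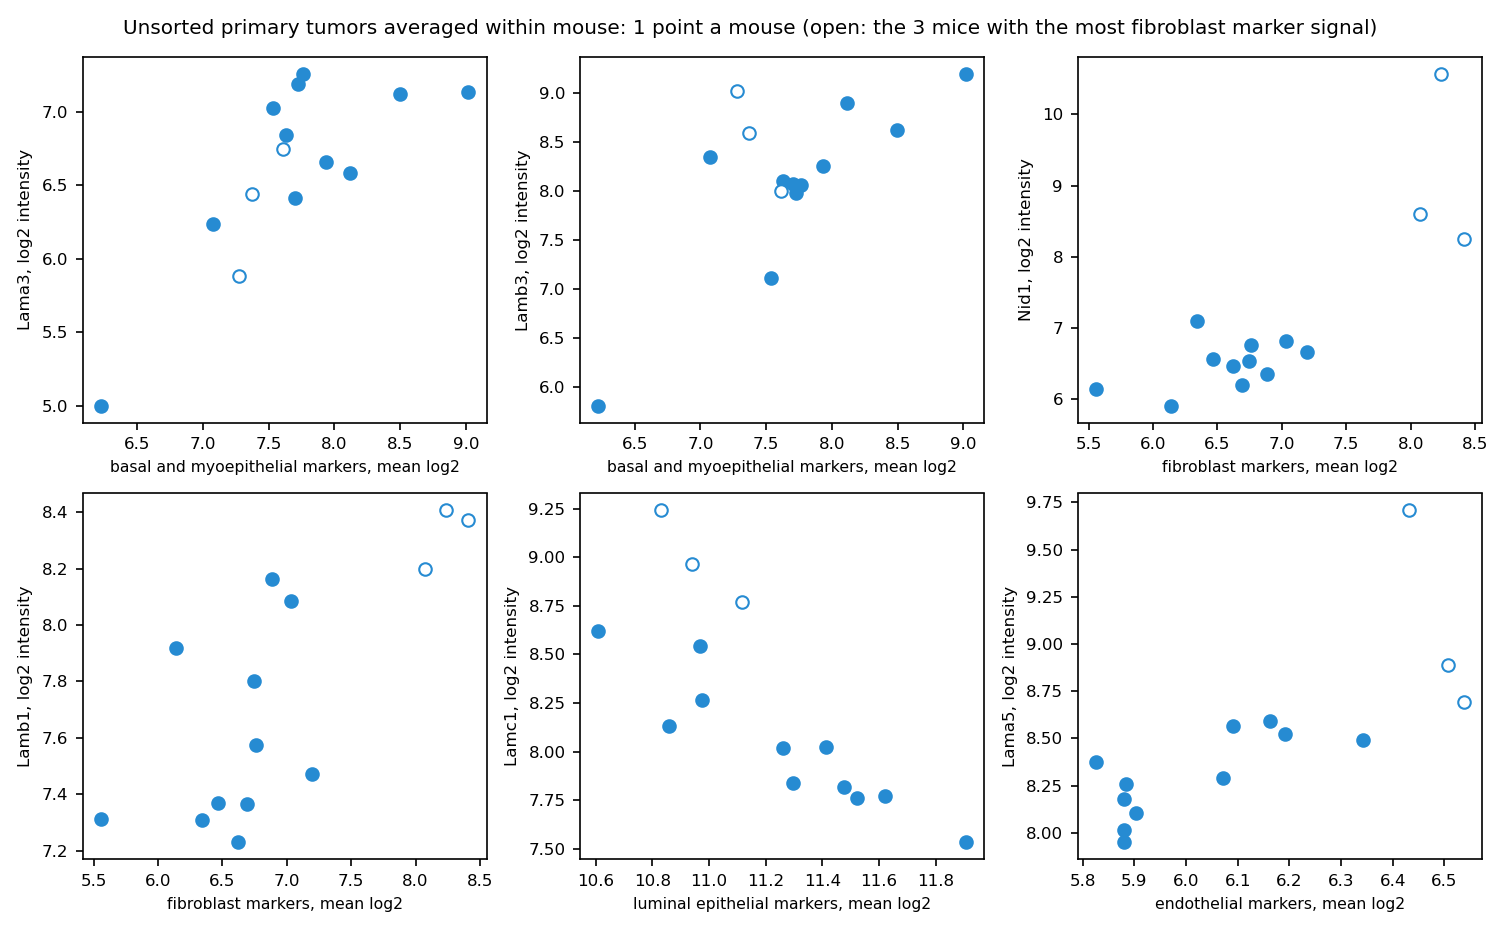
Mouse means of 6 gene and marker list pairs in unsorted primary tumors: log2 intensity of the gene against the mean log2 level of the marker list, 1 point for each of 14 mice, open for the 3 mice high on fibroblast markers. Nid1 is above 8 in the open points and at or below 7.11 in the others, and Lamc1 falls along the luminal axis.

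The genes with the most similar pattern were found by Pearson's r over the 50 replicates, which share mice and arrays. Transcripts without an established name were skipped. For Lama3 they were Col17a1 (0.88), a hemidesmosome collagen, Krt5 (0.85) and Krt17 (0.84), basal keratins. For Nid1 they were Mxra8 (0.92), Loxl1 (0.88) and Mmp2 (0.88). Lama4 was nearest to Vim (0.72), the mesenchymal filament gene, Fkbp7 (0.70) and Aebp1 (0.67). Lamb1 was nearest to Fkbp14 (0.73), Esyt2 (0.71) and Acsl3 (0.71), and Lamc1 to Dpysl3, Jcad and Atp8b2 (0.76 each). Lama5 was nearest to Ergic3 (0.83), Cenpb (0.83) and Mief1 (0.82), and Lamb2 to Wipi2 (0.82), Rab17 (0.74) and Wipf2 (0.74). The nearest genes of Lamb3 were Vwa1 (0.69), Lmo1 (0.66) and Ntf5 (0.63), and those of Hspg2 were Lin7b (0.72), Slc25a29 (0.70) and Smr2 (0.70).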

How the data were processed

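Total RNA of 51 samples was labelled with biotin and hybridized to Affymetrix MOE430.2 arrays, per the labels. The deposited values are probe set intensity on a linear scale, with a column for every array. The sources used here do not name the method by which the authors summarized or scaled them. Of 45101 probe sets 64 are controls, and 1 with 2 aberrant values was left out. Intensities under 32 (37.4%) were set to 32 and log2 was taken. Symbols came from the platform annotation, updated by Entrez identifier (34753 matched); 932 probe sets had several symbols and 9160 no listed gene. Genes entered the test (15150) when 4 or more arrays had them over that array's 40th percentile. Groups came from titles. The 2 arrays of 1 tumor (r = 0.99) were averaged, leaving 50 replicates.

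All groups were fitted with limma 3.58.1 (R 4.3.3), mouse of origin as a random block (correlation 0.358), Benjamini-Hochberg over all genes, called under 0.05. The block weights mice, so fitted differences can depart from differences of means. A second fit took 27535 probe sets. The fit was tested on simulated data. Permutations (100000 resamples, or exact) ran in Python 3.11.15 with numpy 2.4.6 and pandas 2.3.3, and matplotlib 3.10.9 drew the plots. Promoter windows came from RefSeq (GRCm38.p6).

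The members and lists were chosen with earlier results of these data known. Named were all 9 members, up to 4 called genes of each list and comparison with the largest difference, Nid2, Col4a1, Col4a2, Itga6 and Itgb4 whatever the result, and the 3 nearest genes by r. Among the nearest genes, transcripts without an established name were skipped. Alternatives were floors, scalings, filters, blocks, covariates and left-out replicates; correlations within 11 mice were added after seeing the data.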

Additional observations from a re-analysis of the deposited data

Results flagged for a closer look

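Lama5 in sorted hyperplasia replicate 1 was at 6.14, while the next lowest of the 4 was at 7.06. That gap is 0.875 of the range of the group, above Dixon's limit of 0.829 for 4 samples. It was the 1 such value in 45 tests of a member and a group, of which chance marks about 1 in 20. Without that replicate none of the 9 members was called between hyperplasia and tumor, as with it.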

How the results depend on the processing

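Over 29 alternative settings the count of members called stayed at 0 for hyperplasia to tumor, both transplant comparisons and their difference, and at 5 or 6 for tumor against gland. For the sort in primary tumors it was 3, but 1 with the spike-in covariate and 1 with the Actb and Gapdh covariates, and 2 with the floor at 100, with quantile normalization and with the mean of probe sets. For the sort in transplants it was 2, but 1 with samples of a mouse averaged and 0 with only the compared groups. The 1 reversal was Hspg2 against the gland, at -0.55 with the mean of its probe sets. Leaving out each replicate of the groups of 4 or 5 gave counts from 0 to 0, 5 to 5, 3 to 3 and 2 to 2, as did leaving out hyperplasia replicates 1 and 2 together. Centring arrays on their medians moved the median of all genes in the transplant sort from -0.01 to -0.14, and Lama5 and Lamb2 stayed called. Single members kept direction and call in 1760 cases, lost the call in 11 and gained it in 4; in 51 an uncalled sign changed. The cause was not tested. No paired analysis was possible because the replicate numbers are only names. Some mice gave samples to 2 groups, 2 of them to both sorted tumor groups, 1 to both unsorted tumor groups and 1 to the unsorted primary and sorted transplant groups, and mouse of origin was a random block. The floor limits Lamb2 and Lama3, which reach it in several samples.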
